A study of Mus musculus with 13 samples.

Results

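The circadian clock genes described here are Arntl, Clock, Per1, Per2, Per3, Cry1, Cry2, Nr1d1, Nr1d2 and Dbp. They were taken by gene symbol and make up 10 of the 48587 gene symbols of the count table, and all 10 passed the low-count filter that left 13246 genes for testing. Bulk RNA-seq libraries were available from 3 tissues of C57BL/6J mice: macrophages of the sciatic nerve, a peripheral nerve (4 libraries), macrophages of the optic nerve, which belongs to the central nervous system (4 libraries), and microglia of the brain (5 libraries). The brain columns of the table carry an unexplained prefix and were taken as brain because no other tissue was left for them. No treatment, genotype other than the strain, age or sex is given for these libraries in the sources used here. Nothing in the labels says that replicates came from separate animals. If they are technical, the p-values reflect only how much these samples vary. The hour of tissue collection is also not given. Transcripts of most of these genes are known to cycle over the day, so the hour and the tissue cannot be told apart here. In bulk RNA, fewer cells of a type and less RNA per cell cannot be told apart.

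The clock is a loop of transcription and repression that runs in nearly every mammalian cell, macrophages and microglia included. The proteins of Arntl (also called BMAL1) and Clock form a pair that binds E-box sequences and activates the Per, Cry, Nr1d and Dbp genes. The PER and CRY proteins then enter the nucleus and repress the pair that made them. In a second loop the receptors REV-ERB alpha and beta, made by Nr1d1 and Nr1d2, repress Arntl through ROR elements, where the ROR receptors activate it. DBP and its relatives TEF and HLF activate genes with D-boxes, and NFIL3 represses the same sites.

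Total counts per library ran from 10877914 (brain library 1) to 23498764. The clock genes were lowly to moderately expressed: of their 130 values, the highest was 845 counts, 5 were under 10 counts and 1 was 0. Pan-macrophage markers (Csf1r, Adgre1, Cd68, Fcgr1, Mertk) were present in every library, with a summed level of 7622 to 9437 CPM for sciatic nerve, 8486 to 10301 CPM for optic nerve and 7013 to 18094 CPM for brain. CPM here is counts per 1e6 of the library size after TMM scaling. The microglia markers P2ry12, Tmem119 and Sall1 summed to 136 to 162 CPM for sciatic nerve, 3779 to 4531 CPM for optic nerve and 8375 to 16129 CPM for brain. Brain libraries 1 and 2 stood apart from the other brain libraries. Their pan-macrophage sums were 7013 and 10537 CPM, against 17123 to 18094 CPM in brain libraries 3 to 5. Their microglia sums were 8375 and 11374.5 CPM, against 15781 to 16129 CPM. The neuron markers Rbfox3, Snap25, Syt1 and Tubb3 summed to 24.1 and 7.37 CPM in brain libraries 1 and 2. They summed to 0.933 to 2.23 CPM in brain libraries 3 to 5 and to 0.138 to 1.50 CPM in the nerves. In brain library 1 mitochondrial genes took 3.79% of counts, against 0.410% to 1.23% in the other libraries. Of the markers of other cells, 4 neutrophil markers were at 0 in both nerves and summed to at most 0.0933 CPM in brain. The 4 Schwann cell markers Sox10, Prx, Ncmap and Pmp22 summed to 1025 to 1173 CPM in sciatic nerve, 520.1 to 737 CPM in optic nerve and 326 to 750 CPM in brain, nearly all of it Pmp22, while Sox10 was at 0 in sciatic nerve. The 6 fibroblast markers summed to 26.6 to 154 CPM in sciatic nerve and at most 3.55 CPM elsewhere. The 4 endothelial markers summed to 17.0 to 47.7 CPM in brain and 0.623 to 15.6 CPM in the nerves, with Cldn5 at 0 in all libraries. Finally, 4 astrocyte markers summed to 26.7 CPM in brain library 1 and 1.59 to 11.2 CPM elsewhere, and 5 oligodendrocyte markers summed to 160 to 218 CPM in optic nerve and 50.6 to 84.4 CPM elsewhere. The part of these cells in the results was not tested. For the 10 clock genes, results against brain whose call changed without brain libraries 1 and 2 are given both ways. Results of all other genes named are given with all libraries only, and their dependence on these libraries was not examined.

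Against brain, 4 of the 10 clock genes were called in sciatic nerve, where 48.4% of all tested genes were called, and 4 of 10 in optic nerve, where 36.9% were. Called means an adjusted p under 0.05, from the quasi-likelihood test of edgeR, with p-values adjusted by Benjamini-Hochberg over all tested genes. In sciatic nerve 3 were higher than in brain (Arntl, Per1 and Per2), as were 24.1% of all tested genes, and 1 was lower (Per3), as were 24.3%. In optic nerve 1 was higher than in brain (Per1), as were 19.6% of all tested genes, and 3 were lower (Clock, Per3 and Dbp), as were 17.4%. Between the nerves 2 of 10 were called, Arntl and Clock, both higher in sciatic nerve. Of all tested genes 21.8% were called there, 10.9% higher in sciatic nerve. These shares lie near those of all genes, and nothing particular to the clock genes as a list is read from them. Their median log2 fold change was -0.08 for sciatic nerve against brain, -0.34 for optic nerve against brain and 0.63 for sciatic against optic nerve, beside -0.09, -0.08 and 0.00 over all tested genes. Without brain libraries 1 and 2 the count for sciatic nerve against brain was 2, Arntl and Per1. For optic nerve against brain, Per3 was not called in that setting (adjusted p = 0.139) and Nr1d2 was called lower (adjusted p = 0.0493). The share of all tested genes called in that setting is not given here. Nothing particular to the clock genes is read from these changes. The contrasts against brain share the same brain libraries, and the values of each are given side by side.

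**Figure D1:**
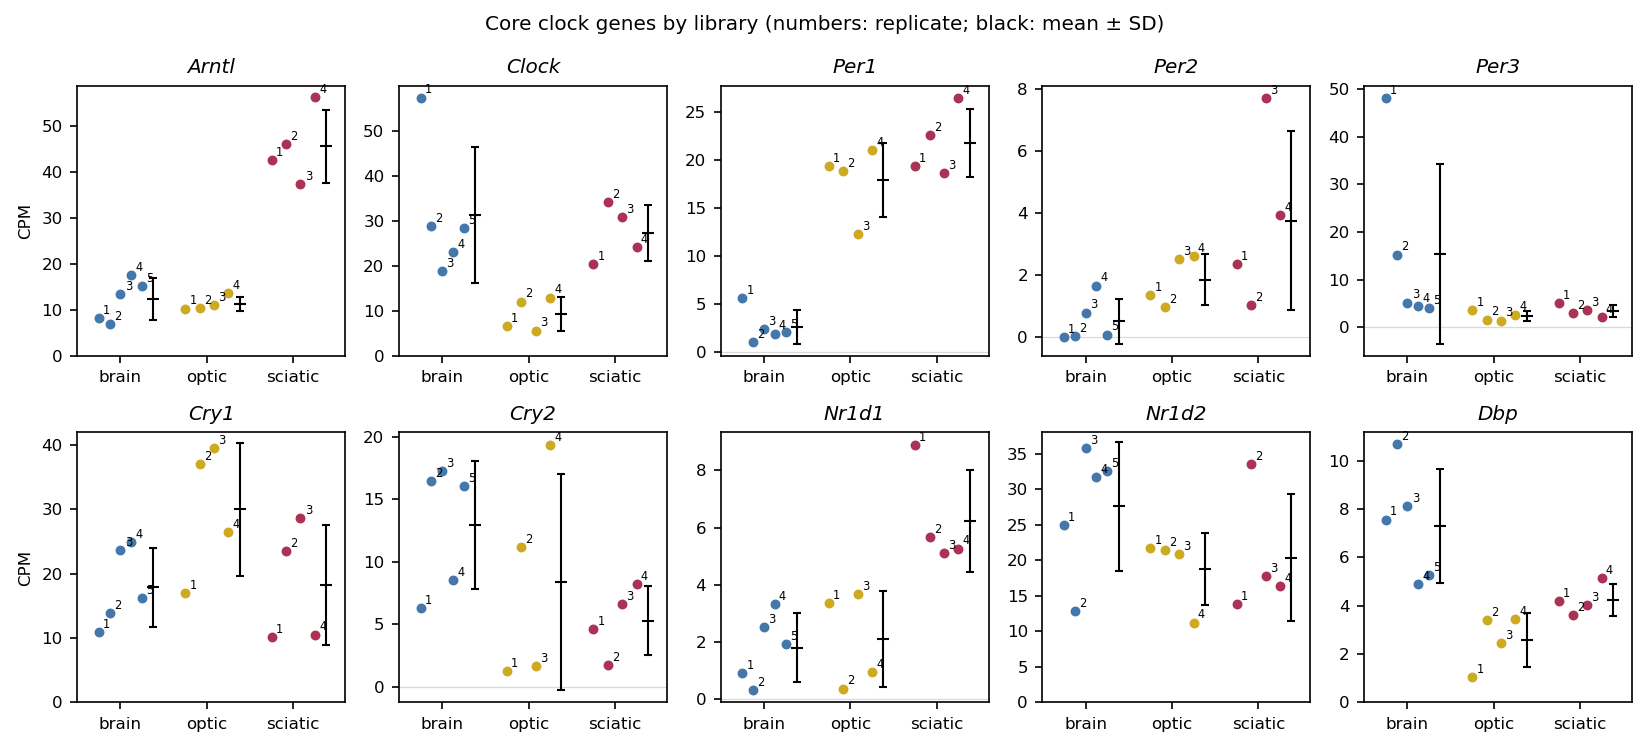
Level of each clock gene in each library, in CPM on linear axes that differ between panels, by tissue (brain n = 5, optic nerve n = 4, sciatic nerve n = 4), with numbered points for the libraries and black bars for the mean ± SD. Arntl lay between 37.4 and 56.3 CPM in sciatic nerve, above all optic nerve and brain libraries, and Per1 was at most 5.59 CPM in brain, under all nerve libraries.

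Arntl, the activator without which the clock stops, was higher in sciatic nerve than in both other tissues. It was counted at 42.7, 46.1, 37.4 and 56.3 CPM in the sciatic nerve libraries, in replicate order. The optic nerve libraries held 10.3, 10.4, 10.997 and 13.7 CPM. The brain libraries held 8.31, 6.94, 13.5, 17.6 and 15.2 CPM. Every sciatic nerve library was higher than every other library, while optic nerve lay inside the range of brain. The mean in sciatic nerve was 45.6 ± 7.95 CPM (SD, n = 4), 3.70 times that of brain (12.3 ± 4.55 CPM, n = 5) and 4.02 times that of optic nerve (11.4 ± 1.57 CPM, n = 4). The log2 fold change was 1.89 against brain (SE 0.27, adjusted p = 4.03e-05) and 2.01 against optic nerve (SE 0.29, adjusted p = 0.000118). For optic nerve against brain it was -0.12 (95% interval -0.69 to 0.45, adjusted p = 0.756), and -0.44 without brain libraries 1 and 2 (adjusted p = 0.0923). The gene lies at chr7:113207465-113314126 on the plus strand (GRCm38, GENCODE M21, as for the other genes).

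The start of Arntl is shown because the second clock loop acts there. In the RefSeq windows of 300 bases around gene starts (GRCm38.p6, 250 before to 50 after), the ROR element was searched as AGTAGGTNA or, on the other strand, TNACCTACT. A window was found for 9 of the 10 clock genes (not Per2), 13 windows in all. Of these genes, 4 had a match to one of the motifs searched. Arntl alone matched the ROR element, and Per1, Per3 and Cry1 matched other motifs, shown with those genes. A window of Arntl, around a start at chr7:113207511, held 2 ROR elements, both on the plus strand. The first began 8 bases before that start and the second 28 bases after it. In another window, around the start at chr7:113207465, the first element began 38 bases after the start. Capitals mark the element.
Arntl, chr7:113207494-113207523: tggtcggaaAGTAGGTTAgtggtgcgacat
Arntl, chr7:113207530-113207559: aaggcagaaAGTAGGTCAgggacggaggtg
Of 32851 windows, 0.591% held the element. Its letters were taken from what is known of Arntl, so this share is only a description, and a match in a window is not a measured binding site.

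Clock, the partner of Arntl and a histone acetyltransferase (chr5:76209868-76304792, minus strand), was lowest in optic nerve. Its sciatic nerve libraries held 20.4, 34.1, 30.7 and 24.2 CPM. Its optic nerve libraries held 6.69, 12.05, 5.64 and 12.96 CPM. Its brain libraries held 57.3, 28.9, 18.8, 23.0 and 28.4 CPM, with brain library 1 far above the other four. Optic nerve was the low tissue, with no overlap with either of the others, while sciatic nerve lay within brain. The log2 fold change was -1.74 for optic nerve against brain (SE 0.35, adjusted p = 0.00159) and 1.55 for sciatic against optic nerve (SE 0.37, adjusted p = 0.00602). Without brain libraries 1 and 2 the gene was still called lower in optic nerve than in brain, at -1.32. For sciatic nerve against brain the value was -0.19 (95% interval -0.91 to 0.53, adjusted p = 0.667), and 0.23 without brain libraries 1 and 2. Per kb of exon, the level of Arntl in sciatic nerve was 6.06 CPM and that of Clock 1.99 CPM. In brain the same levels were 1.64 and 2.28 CPM per kb.

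Per1, a repressor of the pair that is also an immediate target of cAMP and glucocorticoid signals (chr11:69095217-69109960, plus strand), was higher in both nerves than in brain. It was counted at 19.4, 22.6, 18.6 and 26.4 CPM in sciatic nerve and at 19.3, 18.8, 12.3 and 21.005 CPM in optic nerve. The brain libraries held 5.59, 1.03, 2.38, 1.89 and 2.09 CPM. All 8 nerve libraries were above all 5 brain libraries, and the 2 nerves overlapped. The mean in sciatic nerve (21.7 ± 3.56 CPM, SD, n = 4) was 8.36 times that of brain (2.596 ± 1.75 CPM, n = 5), and the mean in optic nerve (17.9 ± 3.83 CPM, n = 4) 6.88 times. The log2 fold changes were 3.09 (SE 0.40, adjusted p = 1.56e-05) and 2.80 (SE 0.40, adjusted p = 7.27e-05). Between the nerves the value was 0.28 (95% interval -0.57 to 1.13, adjusted p = 0.686).

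Another group of genes that respond within minutes to stimuli was also higher in both nerves than in brain. All 10 immediate early genes of the list (Fos, Fosb, Jun, Junb, Egr1, Nr4a1, Ier2, Dusp1, Atf3, Zfp36) were called higher in each nerve than in brain, as were 24.1% of all tested genes in sciatic and 19.6% in optic nerve. Their summed level was 23692 to 28173 CPM for sciatic nerve, 11525 to 14873 CPM for optic nerve and 341 to 409 CPM for brain. These genes also respond to tissue dissociation, and their part in the difference of Per1 was not tested. Between the nerves 4 of the 10 were called higher in sciatic nerve, as were 10.9% of all tested genes, while Per1 was not called (0.28).

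The RefSeq windows of Per1 are shown because they hold a motif for the Arntl and Clock pair and one for cAMP signals. No glucocorticoid motif was searched, and a match in a window is not a measured binding site. One window holds the E-box CACGTG, which reads the same on both strands, 166 bases before its start at chr11:69098949. The other holds the CRE half-site TGACGT through which cAMP signals act, 132 bases before a second start at chr11:69100152. Both starts and both motifs lie inside the annotated span of Per1 (chr11:69095217-69109960). On the other strand the half-site was searched as ACGTCA. Capitals mark the motif.
Per1 E-box, chr11:69098763-69098808, plus strand: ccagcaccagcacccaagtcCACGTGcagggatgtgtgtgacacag
Per1 CRE half-site, chr11:69100000-69100045, plus strand: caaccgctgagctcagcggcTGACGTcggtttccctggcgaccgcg
The E-box was present in 7.15% and the CRE half-site in 7.51% of all windows, so neither is rare.

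Per2, the partner of PER1 in the repressor complex (chr1:91415982-91459324, minus strand), was near absent from most brain libraries. Its sciatic nerve libraries held 2.35, 1.04, 7.70 and 3.93 CPM and its optic nerve libraries 1.36, 0.968, 2.51 and 2.603 CPM. The brain libraries held 0, 0.0356, 0.793, 1.67 and 0.0835 CPM, from 0, 1, 17, 44 and 2 counts. The count of 0 in brain library 1 allows up to 0.227 CPM (3 counts). Brain library 4 lay within both nerves, and the other 4 brain libraries lay below every nerve library. A log2 fold change of 2.83 was found for sciatic nerve against brain (SE 1.07, adjusted p = 0.0387). For optic nerve against brain it was 1.82 (95% interval -0.41 to 4.05, adjusted p = 0.185). The call in sciatic nerve was lost when any of sciatic nerve libraries 1, 3 and 4 or brain libraries 2, 3 and 5 was left out, with adjusted p values up to 0.134. It was also lost without brain libraries 1 and 2 (2.13, adjusted p = 0.0699). Without brain library 4, the one with most Per2, the values were 3.98 in sciatic nerve (adjusted p = 0.00978) and 2.97 in optic nerve (adjusted p = 0.0468), so that both were called.

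Per3, a period protein that the core loop can do without (chr4:151003652-151044665, minus strand), differed the other way, and the size of its difference rested on 2 brain libraries. It was counted at 5.10, 2.97, 3.53 and 2.07 CPM in sciatic nerve and at 3.67, 1.61, 1.40 and 2.66 CPM in optic nerve. The brain libraries held 48.0, 15.2, 5.18, 4.51 and 3.97 CPM. Libraries 1 and 2, those with the neuron markers, were high. Libraries 3 to 5 lay just above the optic nerve libraries, and libraries 4 and 5 overlapped sciatic nerve. Its log2 fold changes were -2.16 for sciatic nerve against brain (SE 0.72, adjusted p = 0.0225) and -2.71 for optic nerve against brain (SE 0.74, adjusted p = 0.0104). Without brain libraries 1 and 2 these were -0.41 (adjusted p = 0.503) and -0.95 (adjusted p = 0.139), so both calls were lost. The call in sciatic nerve was also lost without sciatic nerve library 2 or 4 or brain library 1 alone (-1.08 without the last, adjusted p = 0.109). The optic nerve call held without any single library, at -1.63 without brain library 1. The part of the neuron markers in the Per3 difference was not tested. Per3 lies inside the annotated span of Camta1 on the same strand, and Camta1 was not called in any contrast.

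The window of Per3 is shown because it holds the D-box, the site of DBP and NFIL3, 2 times. The motif TTATGTAA (TTACATAA on the other strand) stands 205 and 158 bases before the start on the minus strand. Capitals mark both copies.
Per3, chr4:151044796-151044890, minus strand: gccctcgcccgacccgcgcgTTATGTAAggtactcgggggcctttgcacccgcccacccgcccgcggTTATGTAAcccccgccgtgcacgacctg
Of all windows 0.938% held a D-box.

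**Figure D2:**
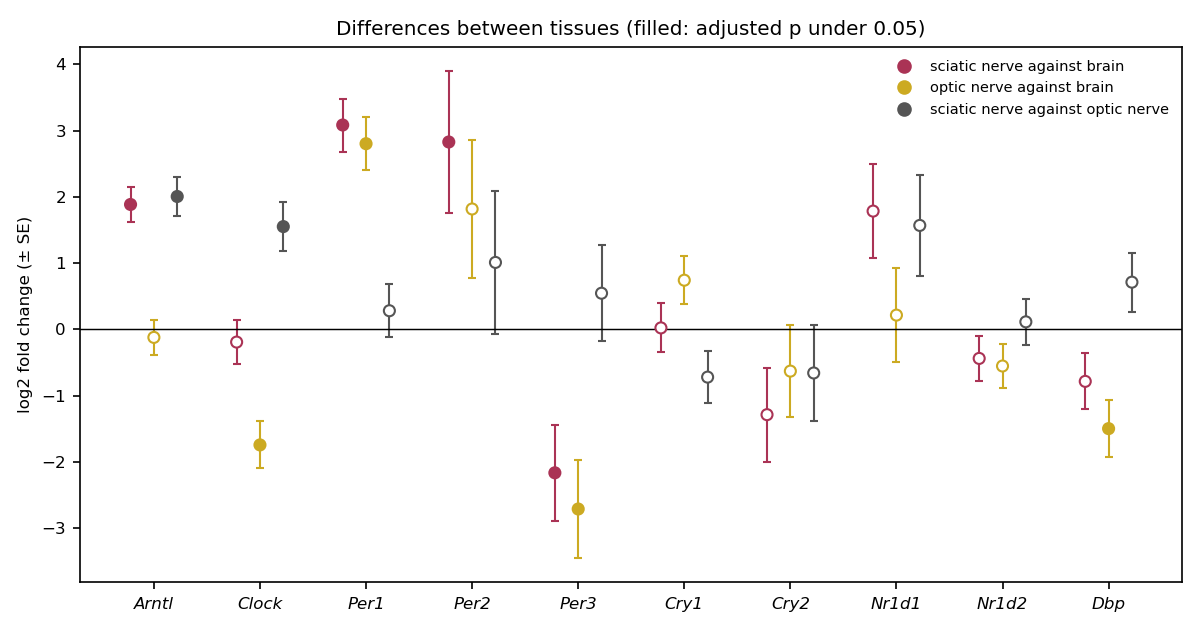
Log2 fold change of each clock gene in the 3 contrasts, 1 colour per contrast, with bars of ± 1 SE derived from the edgeR test and filled points where the gene was called. Per1 stands at 3.09 and 2.80 for the nerves against brain, and Arntl and Clock are the 2 genes called between the nerves.

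Cry1 and Cry2, the cryptochromes that do most of the repression of the pair, were not called in any of the 3 contrasts. Cry1 (chr10:85131700-85185064, minus strand) was counted at 10.1, 23.52, 28.7 and 10.5 CPM in sciatic nerve, 17.0, 37.1, 39.5 and 26.4 CPM in optic nerve, and 10.88, 13.8, 23.7, 24.8 and 16.2 CPM in brain. All 3 tissues overlapped. The log2 fold change of Cry1 was 0.74 for optic nerve against brain (95% interval -0.04 to 1.52, adjusted p = 0.125) and -0.72 for sciatic against optic nerve (-1.55 to 0.11, adjusted p = 0.22). For sciatic nerve against brain it was 0.02 (-0.76 to 0.81), with a sign that turned under several other settings. Per kb of exon Cry1 led the clock genes in optic nerve (8.98 CPM per kb) and brain (5.36), and came after Arntl in sciatic nerve (5.45 against 6.06). Its RefSeq window holds an E-box 60 bases before the start, shown because it is the site of the pair that CRY1 represses.
Cry1 E-box, chr10:85185089-85185134, minus strand: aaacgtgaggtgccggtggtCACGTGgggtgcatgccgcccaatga

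Cry2 (chr2:92403646-92434043, minus strand) split the optic nerve libraries into a low and a high pair. It was counted at 4.64, 1.73, 6.62 and 8.19 CPM in sciatic nerve and 6.27, 16.5, 17.3, 8.56 and 16.0 CPM in brain. The optic nerve libraries held 1.26, 11.2, 1.67 and 19.3 CPM, from 25, 208, 30 and 327 counts. The 95% Poisson intervals of the optic nerve libraries were 0.814 to 1.86, 9.72 to 12.8, 1.13 to 2.39 and 17.3 to 21.6 CPM, so the split is far beyond counting error, which is all these intervals cover. Of genes at a like level in optic nerve, 98.9% had a smaller SD over the 4 libraries. The log2 fold change was -1.29 for sciatic nerve against brain (95% interval -2.80 to 0.23, adjusted p = 0.149) and -0.63 for optic nerve against brain (-2.11 to 0.85, adjusted p = 0.507). Cry2 shares 23417 bases of its span with D930015M05Rik on the other strand, and the strand setting of the counting is not given in the sources used here.

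Nr1d1, which encodes REV-ERB alpha (chr11:98767932-98775333, minus strand), showed the opposite split in the same optic nerve libraries. It was counted at 3.37, 0.376, 3.68 and 0.947 CPM there, from 67, 7, 66 and 16 counts. Libraries 1 and 3 were the high ones, where Cry2 was low. Within a library the log2 ratio of Cry2 to Nr1d1 was -1.35, 4.55, -1.09 and 4.21 in optic nerve. This pattern was noticed after the values were seen, and it was not tested.

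The sciatic nerve libraries held 8.89, 5.67, 5.11 and 5.26 CPM of Nr1d1 and the brain libraries 0.907, 0.320, 2.52, 3.33 and 1.92 CPM. Every sciatic nerve library was above every library of the other tissues. The difference still missed the threshold: the log2 fold change was 1.79 against brain (95% interval 0.26 to 3.31, adjusted p = 0.0508) and 1.57 against optic nerve (-0.07 to 3.20, adjusted p = 0.169). The first was called in 6 of 21 other settings, among them DESeq2 (1.82, adjusted p = 0.0216) and leaving out optic nerve library 2 (1.79, adjusted p = 0.0344) or brain library 4 (2.13, adjusted p = 0.0377). It was lowest without brain libraries 1 and 2, at 1.26 (adjusted p = 0.137). Over all tested genes 41.3% had libraries that did not overlap between sciatic nerve and brain, and 3 of the 10 clock genes did (Arntl, Per1 and Nr1d1). The same held for 4 of 10 in optic nerve against brain (Clock, Per1, Per3 and Dbp, 31.8% of all genes) and for 4 of 10 between the nerves (Arntl, Clock, Nr1d1 and Dbp, 29.9%). Sciatic nerve library 1, with the highest Nr1d1, also had the highest sum of fibroblast markers (Col1a1, Col1a2, Col3a1, Dcn, Lum, Pdgfra), 154 CPM against 26.6 to 35.1 CPM in the other 3. The part of those cells in its level was not tested. Without that library the log2 fold change of Nr1d1 against brain was 1.57 (adjusted p = 0.125). Nr1d1 overlaps Thra on the other strand by 1075 bases, and without a known strand setting reads there cannot be told apart. Thra itself was called higher in sciatic than in optic nerve (log2 fold change 2.19, SE 0.59, adjusted p = 0.0143).

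Nr1d2, the second REV-ERB gene (chr14:18204054-18239127, minus strand), was not called in any contrast. It was counted at 13.8, 33.6, 17.8 and 16.4 CPM in sciatic nerve, 21.7, 21.4, 20.9 and 11.2 CPM in optic nerve, and 25.01, 12.9, 35.9, 31.7 and 32.6 CPM in brain. The 3 tissues overlapped. The log2 fold changes were -0.44 (95% interval -1.15 to 0.27, adjusted p = 0.294) and -0.55 (-1.27 to 0.16, adjusted p = 0.212) against brain for sciatic and optic nerve. Without brain libraries 1 and 2 the optic nerve value was -0.82 (adjusted p = 0.0493). Per kb of exon, Nr1d2 was above Nr1d1 in each tissue, at 3.77 against 2.03 CPM per kb in sciatic nerve, 3.48 against 0.681 in optic nerve and 5.10 against 0.585 in brain.

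Dbp, the output factor whose transcript is a common readout of clock activity (chr7:45705088-45710203, plus strand), was lowest in optic nerve. The sciatic nerve libraries held 4.18, 3.60, 4.03 and 5.13 CPM, the optic nerve libraries 1.06, 3.39, 2.46 and 3.43 CPM, and the brain libraries 7.55, 10.7, 8.12, 4.88 and 5.26 CPM. Optic nerve lay below both other tissues, and sciatic nerve overlapped brain through library 4. Its log2 fold change was -1.50 for optic nerve against brain (SE 0.43, adjusted p = 0.0146), and -1.22 without brain libraries 1 and 2 (adjusted p = 0.0472). For sciatic nerve against brain it was -0.78 (95% interval -1.69 to 0.12, adjusted p = 0.141), and for sciatic against optic nerve 0.71 (-0.24 to 1.67, adjusted p = 0.297). Dbp shares 737 bases with Sphk2 on the other strand, and Sphk2 was called lower in both nerves than in brain (log2 fold changes -1.49 and -0.94).

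**Figure D3:**
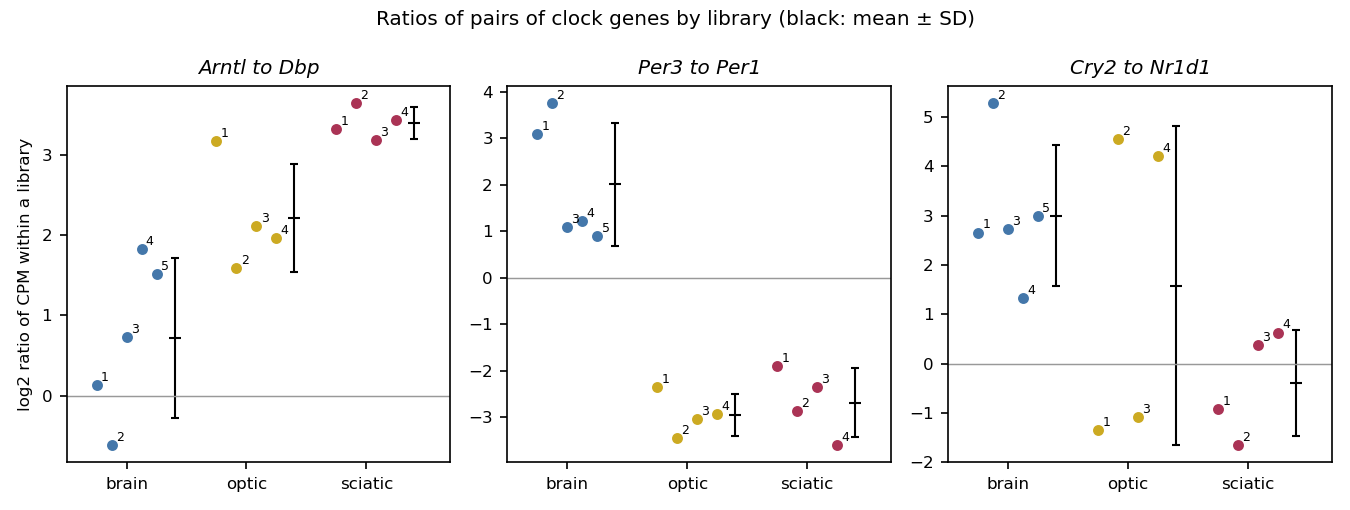
Log2 ratios of CPM of 3 pairs of clock genes within each library, by tissue, with numbered points for the libraries and black bars for the mean ± SD. Per3 against Per1 lies from 0.89 to 3.75 in brain and at or below -1.90 in all 8 nerve libraries, and Cry2 against Nr1d1 splits the optic nerve libraries.

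Levels of different genes are compared per kb of exon, as tissue means of CPM per kb. In sciatic nerve the order ran from Arntl (6.06) and Cry1 (5.45) over Per1 (3.86), Nr1d2 (3.77), Nr1d1 (2.03), Clock (1.99) and Dbp (1.42) to Cry2 (0.838), Per2 (0.641) and Per3 (0.356). In optic nerve it ran from Cry1 (8.98) over Nr1d2 (3.48), Per1 (3.17), Arntl (1.51), Cry2 (1.32) and Dbp (0.863) to Nr1d1 (0.681), Clock (0.680), Per2 (0.318) and Per3 (0.243). In brain it ran from Cry1 (5.36) and Nr1d2 (5.10) over Dbp (2.44), Clock (2.28), Cry2 (2.04), Arntl (1.64) and Per3 (1.60) to Nr1d1 (0.585), Per1 (0.461) and Per2 (0.0880). Of the 9 pairs of neighbours in each order, 6 in sciatic nerve, 6 in optic nerve and 7 in brain lay closer than the larger of their SDs. In sciatic nerve wider gaps stood between Nr1d2 and Nr1d1, between Clock and Dbp, and between Dbp and Cry2. In optic nerve they stood between Cry1 and Nr1d2, between Per1 and Arntl, and between Clock and Per2. In brain they stood between Nr1d2 and Dbp and between Per1 and Per2.

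Ratios of 2 genes within a library largely take out its scaling. The log2 ratio of Arntl to Dbp, whose transcripts are known to peak at opposite times of day, was 3.39 ± 0.19 in sciatic nerve (SD, n = 4), 2.21 ± 0.67 in optic nerve (n = 4) and 0.72 ± 1.00 in brain (n = 5). Every sciatic nerve library was above every other library on this ratio, and brain ran from -0.61 in library 2 to 1.83 in library 4. The log2 ratio of Per3 to Per1 was -2.69 ± 0.73 in sciatic nerve, -2.95 ± 0.45 in optic nerve and 2.00 ± 1.32 in brain. Brain libraries 3 to 5 stood at 1.09, 1.21 and 0.89, so the separation of this ratio did not rest on libraries 1 and 2. The ratio also holds the difference of Per1, which was called in both nerves without these libraries. Per3 by itself was not called without them (-0.41 in sciatic and -0.95 in optic nerve against brain). The log2 ratio of Arntl to Nr1d1, its repressor, had tissue means from 2.82 to 2.95, with a spread between libraries larger than the differences of the means.

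**Figure D4:**
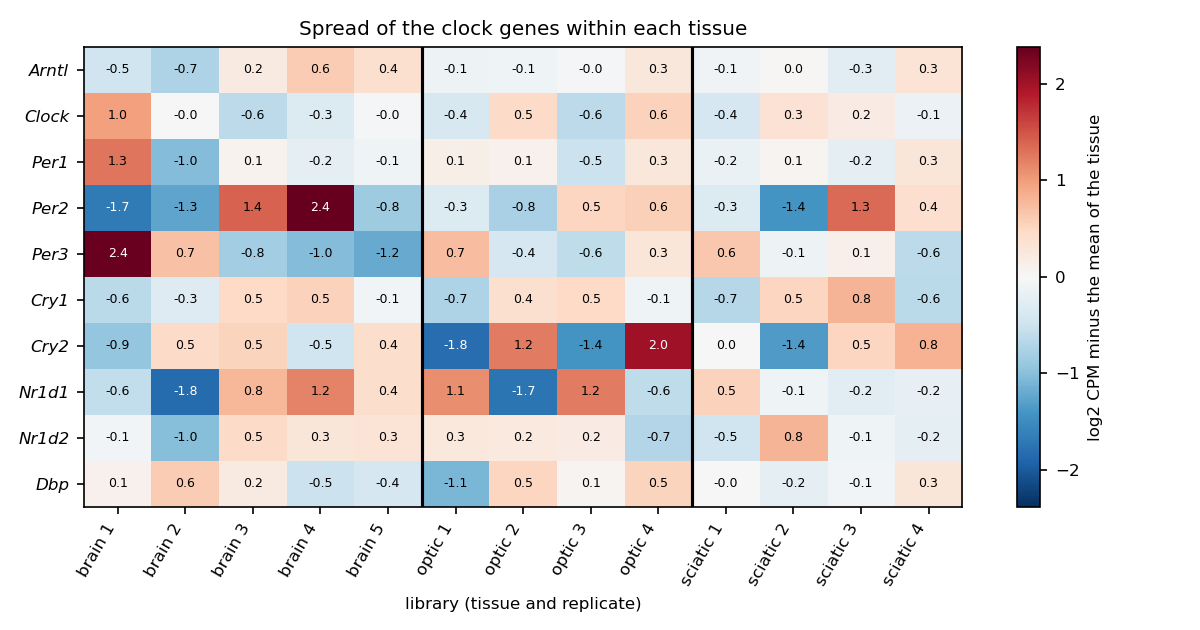
Log2 CPM of each clock gene (rows) in each library (columns, by tissue and replicate) minus the mean of that gene in that tissue, with red for above and blue for below the mean. In optic nerve, Cry2 is low in libraries 1 and 3 and Nr1d1 in libraries 2 and 4, and in brain Per3 is highest in library 1.

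The clock genes varied between libraries of 1 tissue to differing degrees. In brain 8 of 10 had an SD of log2 CPM above the median of genes at a like level, against 6 in optic nerve and 5 in sciatic nerve. Cry2 in optic nerve had an SD of 1.91, against a median of 0.577 for like genes (within 0.5 log2 CPM), and Per3 in brain 1.52 against 0.52. Per3 in brain had a larger SD than 97.5% of like genes and Cry1 in sciatic nerve a larger one than 93.9%. At the other end, Dbp in sciatic nerve had a larger SD than only 4.85% of like genes and Arntl in optic nerve than 10.3%. The SD is a description, as a library that stands apart raises it for many genes.

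The other transcription factors of the clock were taken as a list of their own. Of 11 listed, 7 passed the filter, and for sciatic nerve against brain all 7 were called, with 4 higher and 3 lower, against 48.4% of all tested genes. The median size of their log2 fold change in that contrast was 3.92, beside 0.953 over all tested genes and 1.54 over the 10 clock genes. It was 1.51 for optic nerve against brain and 1.54 between the nerves, beside 0.745 and 0.548 over all tested genes. The list was chosen with earlier results of these data known, so these shares and sizes are only a description. For optic nerve against brain 3 of the 7 were higher and 3 lower, beside 19.6% and 17.4% of all tested genes. Between the nerves 2 were higher and 1 lower in sciatic nerve, beside 10.9% of all tested genes in each direction. Nfil3, the repressor of D-boxes, was at 265 ± 38.5 CPM in sciatic nerve (SD, n = 4), at 91.3 ± 39.5 CPM in optic nerve (n = 4) and at 17.2 ± 5.02 CPM in brain (n = 5), with no overlap between tissues. Its log2 fold changes against brain were 3.95 (SE 0.29, adjusted p = 2.97e-08) and 2.41 (SE 0.27, adjusted p = 8.29e-06). Of the D-box activators, Tef and Hlf were lower in both nerves than in brain, while Dbp was called lower in optic nerve and not in sciatic nerve. Tef fell by 1.94 and 1.29 on the log2 scale against brain in sciatic and optic nerve (adjusted p = 0.000905 and 0.0163), and Hlf by 4.55 and 3.63 (adjusted p = 0.0103 and 0.0319).

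Bhlhe40 and Bhlhe41, a pair of repressors that compete for E-boxes, were called in opposite directions against brain. Bhlhe40 was at 29.5 ± 11.3 CPM in sciatic nerve, at 110.5 ± 22.3 CPM in optic nerve and at 0.934 ± 1.13 CPM in brain. Bhlhe41 was at 4.61 ± 2.34, 18.2 ± 4.76 and 51.7 ± 7.69 CPM in the same order. Rora, an activator of Arntl at ROR elements, was higher in both nerves than in brain, with log2 fold changes of 1.65 (SE 0.30, adjusted p = 0.000376) and 1.39 (SE 0.30, adjusted p = 0.0024). Ciart, a repressor of the Arntl and Clock pair, was higher in sciatic nerve than in brain (3.92, SE 0.61, adjusted p = 9.39e-05) and in optic nerve (2.96, SE 0.64, adjusted p = 0.00324). Of the 4 genes that did not pass the filter, Arntl2, the paralog of Arntl, had 0.196 to 2.14 CPM in sciatic nerve and 0 counts in the other 2 tissues, where 3 counts over the group would be 0.0409 CPM (optic nerve) and 0.0265 CPM (brain).

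**Figure D5:**
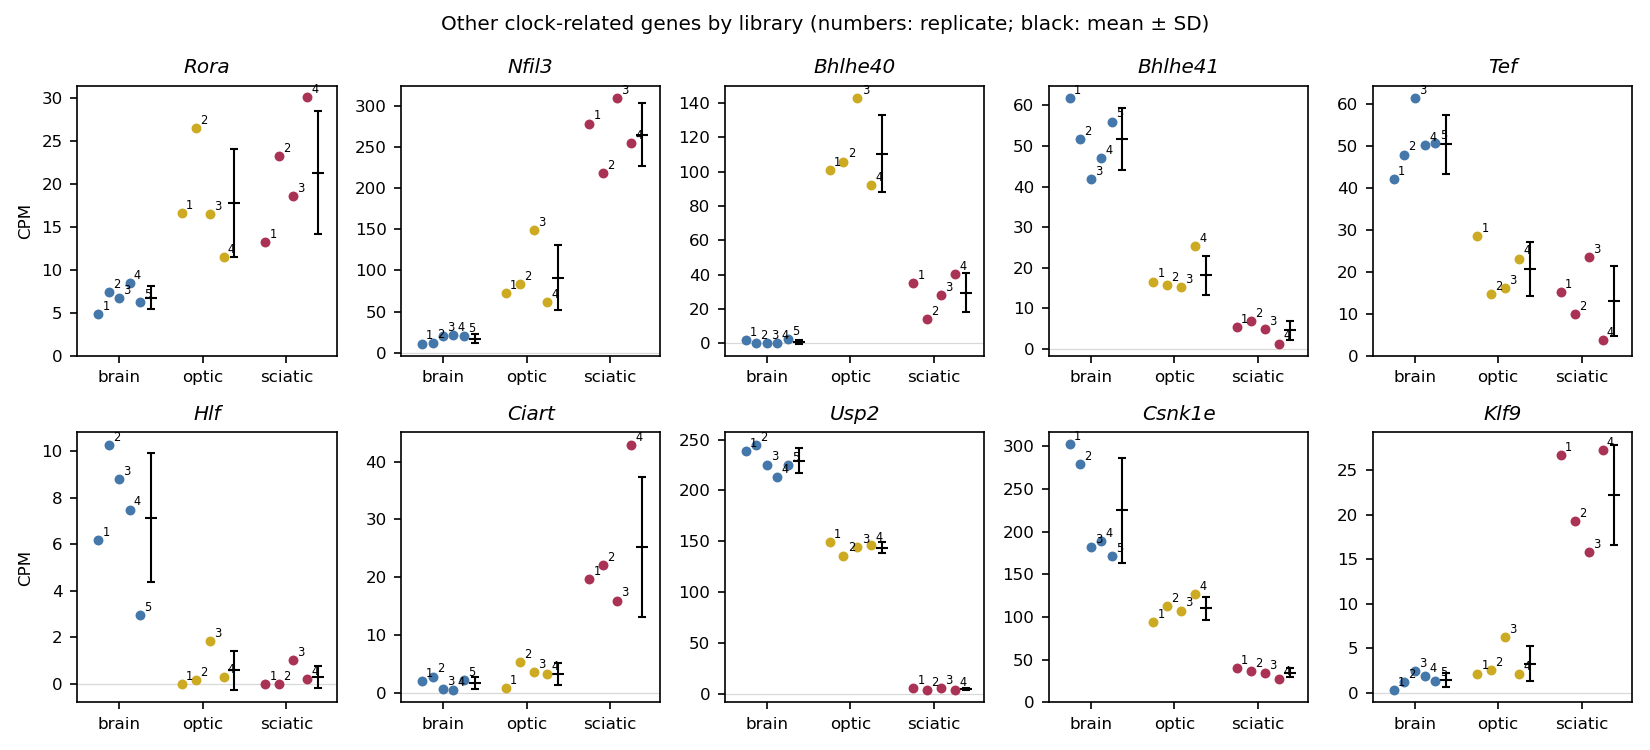
Level of 10 other clock-related genes in each library, in CPM on linear axes that differ between panels, by tissue (brain n = 5, optic nerve n = 4, sciatic nerve n = 4), with numbered points for the libraries and black bars for the mean ± SD. Nfil3, Ciart and Klf9 are highest in sciatic nerve, Bhlhe40 in optic nerve, and Tef, Hlf, Bhlhe41, Csnk1e and Usp2 in brain.

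Genes for the turnover and phosphorylation of clock proteins made up a list of 10, all tested. For sciatic nerve against brain 2 were called (48.4% of all tested genes), for optic nerve against brain 4 (36.9%) and between the nerves 2 (21.8%). Usp2, a deubiquitinase of clock proteins, was at 5.17 ± 1.08 CPM in sciatic nerve, at 144 ± 5.68 CPM in optic nerve and at 229 ± 12.4 CPM in brain. Its log2 fold change in sciatic nerve was -5.47 against brain (SE 0.18, adjusted p = 7.45e-12) and -4.80 against optic nerve (SE 0.17, adjusted p = 9.7e-11). Csnk1e, a kinase of the PER proteins, was at 34.6 ± 5.20, 110.5 ± 13.4 and 225 ± 61.2 CPM and was called in all 3 contrasts.

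Glucocorticoids set the clock of many tissues and act on Per1, so 7 genes that respond to them were listed. In sciatic nerve against brain 3 were higher (Tsc22d3, Zbtb16, Klf9) and 2 lower (Sgk1, Ddit4), where 24.1% and 24.3% of all tested genes were. In optic nerve against brain 1 was higher (Tsc22d3) and 2 lower (Nr3c1, Ddit4), where 19.6% and 17.4% of all tested genes were. Between the nerves 3 were higher in sciatic nerve (Nr3c1, Zbtb16, Klf9) and 1 was lower (Sgk1), where 10.9% of all tested genes were called in each direction. Klf9, which is also a clock output, was at 22.3 ± 5.61 CPM in sciatic nerve, at 3.28 ± 1.99 CPM in optic nerve and at 1.43 ± 0.79 CPM in brain.

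For each clock gene the 3 genes of most like pattern were taken as those with the smallest root mean square difference of centred log2 CPM over the 13 libraries. Those of Arntl were Gas2l1 (0.264), Fam63a (0.281) and Sepp1 (0.283), where the median over all other genes was 1.28. The nearest of Clock was Cdk6 (0.335), of Per1 Rassf3 (0.424) and of Dbp Hlx (0.368). Per2 had the most distant nearest gene, Mtmr12 (0.892). None of the 10 clock genes was among the 3 nearest of another.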

How the data were processed

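The authors deposited 1 table of raw read counts per gene symbol, made with STAR (version not given) and featureCounts 1.5.1 on mm10, per the submitters' processing notes. Neither the annotation nor the strand setting is given in the sources used here. Nerve columns carry tissue initials and replicate numbers, and the 5 remaining columns were taken as brain by elimination. Unused columns of per-sample values number 0.

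Analysis of the counts used edgeR 4.0.16 under R 4.3.3: filterByExpr by tissue, TMM scaling, 1 quasi-likelihood fit over all 13 libraries with tissue as the factor, and the 3 pairwise contrasts, with Benjamini-Hochberg adjustment over the 13246 genes tested and calls at 0.05. Standard errors were derived from the test, as the size of the unshrunken log2 fold change over the square root of the F statistic. The 95% intervals of log2 fold changes use these standard errors. Log2 CPM for spreads, ratios and likeness used a prior count of 2. Levels per kb use exon lengths of GENCODE M21 (GRCm38), which held 95.64% of the symbols. Poisson intervals and floors of 3 counts cover counting error only.

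The alternatives were RLE and upper quartile scaling, DESeq2 1.42.0, limma-voom (limma 3.58.1), no low-count filter, only the tissues compared, a replicate block, and leaving out libraries. Same-numbered libraries did not deviate together (12 pairs, r from -0.0776 to 0.0773), so the numbers were not used to pair them. The 10 genes, the companion lists and the motifs were chosen with earlier results of these data known. The genes named are the 10, those of the companion lists, genes whose annotation overlaps one of the 10, and the 3 genes of most like pattern. Some genes of the marker lists are not reported here.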

Additional observations from a re-analysis of the deposited data

Results flagged for a closer look

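In 4 of the 30 combinations of clock gene and tissue, 1 library lay far from the rest by Dixon's ratio, the gap to the nearest library divided by the whole range. Chance gives about 1 in 20 such groups. Brain library 1 was the highest for Clock (57.3 CPM, ratio 0.739) and for Per3 (48.0 CPM, ratio 0.744). Sciatic nerve library 1 was the highest for Nr1d1 (8.89 CPM, ratio 0.852). Optic nerve library 4 was the lowest for Nr1d2 (11.2 CPM against 20.9 to 21.7 CPM, ratio 0.918). On the log2 CPM scale only 1 of the 30 stood apart, Nr1d2 in optic nerve.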

How the results depend on the processing

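Each of the 30 gene results was recomputed under 21 alternatives, and 23 kept their side of the threshold in all. Arntl in sciatic nerve (1.56 to 2.05 against brain), Clock in optic nerve (-1.94 to -1.32 against brain), Per1 in both nerves and Dbp in optic nerve against brain were called in all 21. The number of clock genes called in sciatic nerve against brain was 4, and 2 without brain libraries 1 and 2. The share of all tested genes without these libraries is not given here, so the drop is not read as particular to the clock genes. Leaving out 1 library at a time, the number of clock genes called ran from 2 to 5 for sciatic nerve against brain. For optic nerve against brain it ran from 4 to 5. Over all tested genes the calls in the same settings ran from 5859 to 6665 and from 3972 to 5304. With limma-voom Per3 was called in neither nerve (-1.32 and -1.89, adjusted p = 0.173 and 0.0782), and Per2 was called in optic nerve (3.05, adjusted p = 0.0278). With only the tissues compared Per2 was not called in sciatic nerve (adjusted p = 0.063), while Cry2 (-1.28, adjusted p = 0.0478) and Nr1d1 (adjusted p = 0.034) were. The cause was not tested.

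Values that were not called changed sign as follows. Cry1 in sciatic nerve against brain was -0.063 with upper quartile scaling, -0.12 with limma-voom, -0.083 with the replicate block and -0.24 without brain libraries 1 and 2. Without these 2 libraries Clock in sciatic nerve was 0.23 and Nr1d1 in optic nerve -0.30. Arntl in optic nerve against brain was 0.028 with the replicate block, and Cry2 between the nerves 0.039 with limma-voom. Leaving out 1 library at a time, Cry1 (-0.28 to 0.22) and Clock (-0.33 to 0.14) in sciatic nerve against brain, Arntl (-0.27 to 0.041) and Nr1d1 (-0.20 to 0.58) in optic nerve against brain, and Cry2 (-1.02 to 0.17) and Nr1d2 (-0.24 to 0.26) between the nerves spanned 0. The replicate block changed no call of the 10 genes (4, 4 and 2 called), and over all genes it gave 5606, 3926 and 2478 calls against 6410, 4893 and 2892. Of the 12 libraries whose number occurs in all tissues, 4 correlated best with a library of their own number. Another scaling moved the median of all genes by at most 0.098. Counts under 10, as for Per2 in brain, limit the precision of single values.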
